A study of Mus musculus with 6 samples.

Results

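The genes described here encode subunits and assembly factors of the mitochondrial respiratory chain and the ATP synthase. They were chosen by symbol (Nduf, Sdha to Sdhd, Uqcr, Cox4 to Cox8 and Atp5), and 89 of the 19533 genes measured met that rule. They were compared between large-intestinal epithelial cells of HDAC3ΔIEC mice, in which the histone deacetylase gene Hdac3 is knocked out within intestinal epithelial cells, and of HDAC3FF mice, the floxed controls. All mice were germ-free, without a microbiota, and of strain C57BL/6. RNA of live cells that carry EpCAM, a surface protein of epithelia, was hybridised to 3 arrays per genotype, described as biological replicates. Neither the promoter that drives the deletion nor the age of the mice is given in the sources used here. Values are log2 signals, so a difference of 1 is a factor of 2. The array median lay between 5.30 and 5.35, and 83 of the 89 genes had a mean signal above the highest array median.

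The respiratory chain passes electrons from NADH (complex I) and succinate (complex II) through coenzyme Q to complex III, and by cytochrome c to complex IV, which reduces oxygen. Complexes I, III and IV pump protons across the inner mitochondrial membrane, and the ATP synthase, complex V, uses the returning protons to make ATP. In the large intestine, colonocytes draw much of their energy from this pathway, normally by oxidising butyrate made by bacteria, a source that germ-free mice lack. HDAC3 acts within the NCoR and SMRT corepressor complexes, which are known to repress targets of nuclear receptors, among them genes of oxidative metabolism.

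Of the 89 genes, 34 encode complex I subunits, 4 complex II, 8 complex III, 10 complex IV and 17 complex V. Another 8 are assembly factors (Ndufaf1 to Ndufaf7 and Cox7a2l), and 8 are isoforms otherwise known from particular tissues such as muscle, testis or lung. Ndufa4 was counted with complex IV, to which its protein is now assigned. The RefSeq gene table held 96 protein-coding genes that match the rule. Of the 7 without a value here, Cox7c, Ndufb4 and Ndufb4b are on probe sets shared with other genes, and the other 4 were not analysed here. The 13 mitochondrially encoded subunits were not measured, so every result concerns the nuclear-encoded part of the complexes. No filter on low signals was applied.

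Hdac3 itself read 6.58, 6.22 and 6.00 in HDAC3ΔIEC cells, against 6.96, 7.36 and 7.04 in HDAC3FF cells. The groups did not overlap, and the log2 fold change was -0.86 ± 0.17 (SE), with a limma adjusted p of 0.0937 over all genes. The labelled cell type carried its defining markers at high signal. Epcam averaged 10.85 ± 0.11 in HDAC3ΔIEC cells and 10.91 ± 0.13 in HDAC3FF cells (SD, n = 3 each). Its log2 fold change was -0.06, or 0.02 without HDAC3FF replicate 3. Of the 6 colonocyte markers measured, Epcam among them, 0 were called, with 4 higher and 2 lower in HDAC3ΔIEC. Slc26a3 differed by -0.44 ± 0.08 (limma adjusted p = 0.0819) and Krt20 by 0.41 ± 0.16 (adjusted p = 0.415), with groups that did not overlap. Without HDAC3FF replicate 3, Krt20 was at 0.59 and passed (adjusted p = 0.0436). Over all genes, 137 were called at an adjusted p under 0.05, which is 0.701%, with 72 higher and 65 lower in HDAC3ΔIEC. HDAC3FF replicate 3 stood apart for the genes described here, as set out next. Values without it are therefore given for each complex, and for most pathway lists and named genes that then differ by over 1.5 times or in sign. Median fold changes of the marker lists are not given, with or without it. Of the marker lists for other cells, enteroendocrine genes differed between the genotypes. Of 6 measured, 2 were called (4 without HDAC3FF replicate 3), the peptide hormone genes Insl5 and Pyy, both higher, and their summed linear signal lay between 7011 and 7514 in HDAC3ΔIEC cells, against 2035 to 4404 in HDAC3FF cells. No marker of goblet, tuft, myeloid, T and NK, B and plasma, fibroblast and muscle, or endothelial cells was called (limma, 32 genes measured). Of these 32, 2 had an unadjusted p under 0.05, Cd68 and Cd3e, beside 11.2% of all genes. Whether the cell mixture had a part in the values below was not tested, and in such bulk samples fewer cells of a type and less RNA per cell cannot be told apart.

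No respiratory chain or ATP synthase gene passed the test. Of the 89 genes, 0 had a limma adjusted p under 0.05, and the smallest was 0.269. At an unadjusted p under 0.05 there were 5 (5.62%), namely Sdhc, Uqcrc1, Ndufaf6, Cox7a1 and Cox6b2, beside 11.2% of all genes. The fitted differences lay mostly on the positive side, with 73 of 89 above 0 (82.0%), against 53.5% of all genes. They were small, with a median log2 fold change of 0.11, beside 0.01 over all genes. The 3 HDAC3ΔIEC arrays lay above all 3 HDAC3FF arrays for 10 of the genes (11.2%), where the share over all genes was 8.45%. They lay below for 2 (2.25%), where it was 7.7%.

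The positive median rested on 1 control array. Relative to each gene's mean over the 6 arrays, the median of the 89 genes was 0.03, 0.01 and 0.11 on the HDAC3ΔIEC arrays, against 0.02, 0.08 and -0.30 on the HDAC3FF arrays. HDAC3FF replicate 3 was thus the low one, and the other 2 controls lay among the HDAC3ΔIEC arrays. It held the lowest value of 72 of the 89 genes (80.9%), against 20.5% of all genes. Set against each control in turn, the HDAC3ΔIEC mean had a median difference of 0.02 from replicate 1 (higher for 49 of 89 genes), -0.03 from replicate 2 (35 of 89) and 0.35 from replicate 3 (84 of 89). Without HDAC3FF replicate 3, the median log2 fold change was -0.02, 41 of 89 genes were on the positive side and 32 changed sign. Again 0 of the 89 genes were called, although 430 of all genes (2.2%) then were.

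**Figure D1:**
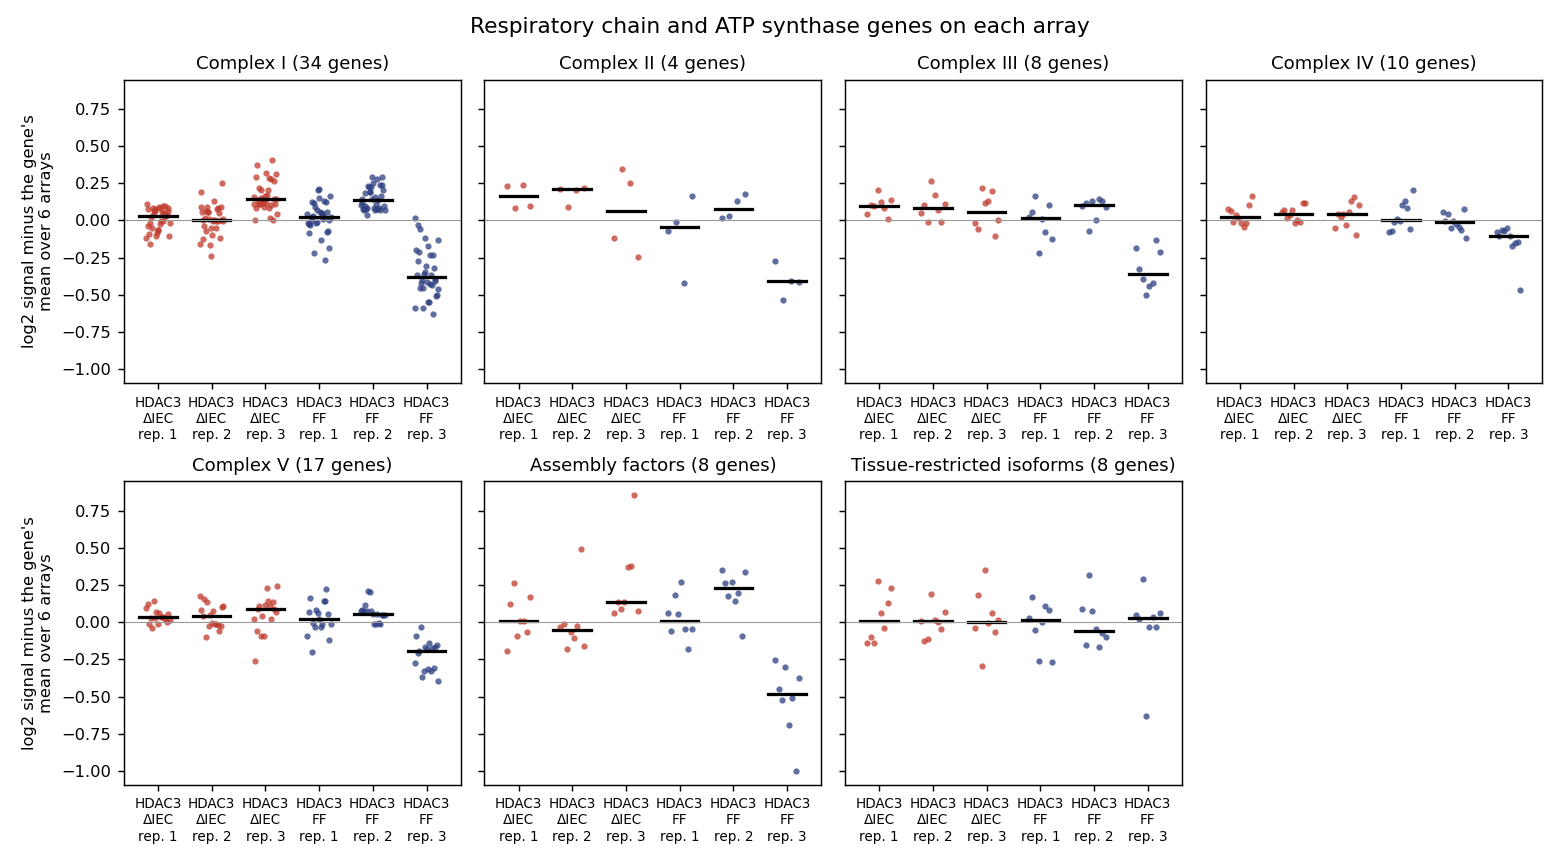
Each point is 1 gene on 1 array, with the HDAC3ΔIEC arrays on the left (red) and the HDAC3FF arrays on the right (blue) of each panel; the vertical axis is the log2 signal minus that gene's mean over the 6 arrays, and the black bar is the median of the panel's genes. On HDAC3FF replicate 3 the bars stand at -0.38 for complex I, -0.41 for II, -0.36 for III, -0.11 for IV, -0.19 for V and -0.48 for assembly factors, whereas that of the tissue-restricted isoforms is at 0.03. The isoforms had mean signals under 6, except Cox7a1, whose point on that array is at -0.63.

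The spread within the groups followed the same array. The median SD over the 89 genes was 0.086 in HDAC3ΔIEC cells and 0.237 in HDAC3FF cells (n = 3 each), and 75 of 89 genes had the larger SD in HDAC3FF. Over all genes the median SD was 0.112 in HDAC3ΔIEC cells and 0.134 in HDAC3FF cells. Taking all genes of similar brightness, the median was near 0 on HDAC3FF replicate 3 for mean signals between 8 and 12. The 433 genes with mean signals between 10 and 11 had a median deviation of 0.01 on that array, where the 16 complex I genes among them had -0.42. Between 11 and 12 the values were -0.02 for all 214 genes, against -0.23 for 11 complex I genes, -0.33 for 3 of complex III, -0.27 for 11 of complex V and -0.14 for 5 of complex IV. The contrast was smaller between 12 and 13, with -0.06 for all 91 genes and -0.07 for 5 of complex IV. There 6 genes of complex V had -0.17 and 2 of complex III had -0.16. On the same array the median deviation was 0.17 for the 6 colonocyte markers, 0.12 for goblet, 0.14 for fibroblast and muscle and 0.10 for endothelial markers. It was 0.07 for myeloid, 0.02 for B and plasma and 0.00 for T and NK markers, and -0.11 for tuft and -0.23 for enteroendocrine markers. The enteroendocrine deviation was -0.90 and -0.99 on HDAC3FF replicates 1 and 2. Replicate 3 was thus the highest control for these markers, as it was for their summed signal. What set this array apart was not tested.

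The promoters of the genes were read for the motif of nuclear respiratory factor 1 (NRF1), because it is a factor known to bind promoters of respiratory chain genes. RefSeq promoter windows of GRCm38.p6 were found for 73 of the 89 genes, 78 windows in all, and the 250 bases before each start were searched on both strands. The letters GCGCANGCG occurred in 15 of the 78 windows (19.2%), against 5.16% of 32851 windows over all genes. The ETS letters CCGGAAG, which GABP (nuclear respiratory factor 2) recognises, occurred in 13 windows (16.7%, against 6.91% over all genes). The YY1 letters AAGATGGCG occurred in 1 (1.28%, against 0.606%). Below are 4 of the windows that hold the NRF1 letters, listed among themselves in order of limma p. Not every such window was eligible to be shown, so a gene with a smaller p may be missing. They are printed 5′ to 3′ on the gene's strand, with the matched letters of either strand in capitals. Sdha lies at chr13:74350241-74350490 (minus strand), Ndufa8 at chr2:36049339-36049588 (minus), Ndufa11 at chr17:56717512-56717761 (plus) and Ndufa5, which has 2 listed starts, at chr6:24527527-24527776 (minus).
Sdha: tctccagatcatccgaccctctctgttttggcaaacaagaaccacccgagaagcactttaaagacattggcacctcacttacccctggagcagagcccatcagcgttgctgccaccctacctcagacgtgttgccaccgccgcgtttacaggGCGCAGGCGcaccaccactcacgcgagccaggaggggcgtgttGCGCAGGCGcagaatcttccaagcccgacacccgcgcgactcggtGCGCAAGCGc
Ndufa8: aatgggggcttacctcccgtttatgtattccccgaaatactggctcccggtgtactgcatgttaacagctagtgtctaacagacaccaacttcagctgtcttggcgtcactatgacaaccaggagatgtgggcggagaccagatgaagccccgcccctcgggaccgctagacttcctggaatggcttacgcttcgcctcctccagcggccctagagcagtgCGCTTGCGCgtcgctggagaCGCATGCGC
Ndufa11: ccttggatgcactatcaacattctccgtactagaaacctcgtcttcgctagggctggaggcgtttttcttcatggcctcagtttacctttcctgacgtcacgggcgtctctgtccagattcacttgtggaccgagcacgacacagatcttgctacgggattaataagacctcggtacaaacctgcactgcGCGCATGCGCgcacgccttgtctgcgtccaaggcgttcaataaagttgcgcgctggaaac
Ndufa5: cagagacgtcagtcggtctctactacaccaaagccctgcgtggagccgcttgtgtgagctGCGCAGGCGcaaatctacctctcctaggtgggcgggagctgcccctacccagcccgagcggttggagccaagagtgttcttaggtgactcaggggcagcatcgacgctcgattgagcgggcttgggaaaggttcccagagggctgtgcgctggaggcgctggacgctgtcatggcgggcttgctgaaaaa
Sdha, the flavoprotein subunit of complex II, held 3 matches and Ndufa8, an accessory subunit of complex I, held 2. The run of capitals in Ndufa11 is a match on each strand, overlapping, and Ndufa5 held 1 match. A match describes the letters only. Genes with the NRF1 letters had a median log2 fold change of 0.09 (14 genes), against 0.11 for the 59 without. On HDAC3FF replicate 3 their median deviation was -0.32, and it was -0.32 without the letters too. For the ETS letters the values on that array were -0.18 with them (13 genes) and -0.34 without (60 genes).

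Complex I takes electrons from NADH, and its 34 measured genes had a median log2 fold change of 0.12, with 27 on the positive side and 0 called. Against the single controls the median difference was 0.03 from replicate 1 (21 of 34 genes higher in HDAC3ΔIEC), -0.08 from replicate 2 (8 of 34) and 0.44 from replicate 3 (33 of 34). Without HDAC3FF replicate 3 the median was -0.03. Ndufv1, the subunit that binds NADH and FMN, read 9.73, 9.90 and 9.79 in HDAC3ΔIEC cells, against 9.46, 9.85 and 9.14 in HDAC3FF cells. The groups overlapped through HDAC3FF replicate 2, and the log2 fold change was 0.32 ± 0.17 (limma adjusted p = 0.585), or 0.15 without HDAC3FF replicate 3. Ndufa10, an accessory subunit of the membrane arm, read 10.83, 10.91 and 10.88 in HDAC3ΔIEC cells, against 10.70, 10.86 and 10.13 in HDAC3FF cells, and differed by 0.31 ± 0.18 (adjusted p = 0.625). HDAC3FF replicate 3 alone lay far from the other arrays, and without it the difference was 0.09. Ndufb8 was the only complex I gene whose groups did not overlap, at 0.28 ± 0.17 (adjusted p = 0.635). Without HDAC3FF replicate 3 its difference was 0.08, and it was named after its values were seen. At the other end, Ndufb11 and Ndufa1, accessory subunits encoded on the X chromosome, had log2 fold changes of -0.12 ± 0.12 and -0.11 ± 0.10, with overlapping groups. Without HDAC3FF replicate 3 the values were -0.21 and -0.13.

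Ndufs3, a core subunit of the peripheral arm, had the smallest p of complex I, and its 2 probe sets gave different sizes. On the brighter probe set, the one used for all counts, it read 11.11, 11.14 and 11.33 in HDAC3ΔIEC cells, against 10.79, 11.14 and 10.82 in HDAC3FF cells. The lowest HDAC3ΔIEC array lay under the highest control, and the log2 fold change was 0.28 ± 0.12 (limma adjusted p = 0.463). On the dimmer probe set it read 9.80, 10.14 and 10.69 in HDAC3ΔIEC cells, against 8.50, 8.99 and 9.11 in HDAC3FF cells. There the groups were clear of each other, at 10.21 ± 0.45 against 8.87 ± 0.32 (SD, n = 3 each), and HDAC3FF replicate 3 was the highest control. On the brighter probe set replicate 1 was the lowest. The log2 fold change of 1.34 ± 0.25 had a limma adjusted p of 0.0854 over 21105 probe sets and did not pass. Of the 17 genes with several probe sets, 14 agreed to within 0.2 between their highest and lowest log2 fold change, and the gaps of the others were 1.07 for Ndufs3, 0.43 for Atp5md and 0.41 for Ndufab1. What each probe set of Ndufs3 detects was not tested.

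Complex II oxidises succinate and is also an enzyme of the TCA cycle. All 4 of its genes had positive fold changes, with a median of 0.28 and 0 called, and the median was 0.15 without HDAC3FF replicate 3. Sdhc, a membrane anchor that binds the heme together with Sdhd, read 11.61, 11.57 and 11.62 in HDAC3ΔIEC cells, against 10.95, 11.50 and 10.96 in HDAC3FF cells. The HDAC3ΔIEC arrays lay close together and above every control, and 2 of the 3 controls were low, replicate 1 as much as replicate 3. The log2 fold change was 0.46 ± 0.15, a fold of 1.38 (limma adjusted p = 0.293), and it was 0.38 without replicate 3. Sdhb, the iron-sulfur subunit, read 10.54, 10.55 and 10.81 in HDAC3ΔIEC cells, against 10.45, 10.49 and 9.92 in HDAC3FF cells. The groups did not overlap, but HDAC3FF replicates 1 and 2 lay within 0.1 of the nearest HDAC3ΔIEC array, and the difference of 0.35 ± 0.17 (adjusted p = 0.509) was 0.16 without replicate 3. Sdha, the flavoprotein, read 10.65, 10.63 and 10.30 in HDAC3ΔIEC cells, against 10.34, 10.43 and 10.15 in HDAC3FF cells, and differed by 0.22 ± 0.13 (adjusted p = 0.623), or 0.14 without replicate 3. Sdhd, the other membrane anchor, read 10.25, 10.37 and 9.91 in HDAC3ΔIEC cells, against 10.32, 10.33 and 9.74 in HDAC3FF cells. Replicate 3 was the lowest array in both groups, and its difference of 0.04 ± 0.19 (adjusted p = 0.972) was -0.15 without HDAC3FF replicate 3.

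Complex III hands electrons from coenzyme Q to cytochrome c. Its 8 genes had a median log2 fold change of 0.18, with 7 positive and 0 called, and all 8 were lowest on HDAC3FF replicate 3. Without that array the median was 0.07. The core proteins had the largest differences. Uqcrc1 read 10.10, 10.16 and 10.01 in HDAC3ΔIEC cells, against 9.68, 10.03 and 9.40 in HDAC3FF cells. The groups touched through HDAC3FF replicate 2, and the log2 fold change of 0.39 ± 0.16 (limma adjusted p = 0.418) was 0.24 without replicate 3. Uqcrc2 read 11.04, 11.09 and 11.05 in HDAC3ΔIEC cells, against 10.94, 10.93 and 10.48 in HDAC3FF cells. No arrays overlapped, and its difference was 0.28 ± 0.13 (adjusted p = 0.506), or 0.13 without replicate 3. Among the small accessory subunits, Uqcrq differed by 0.17 ± 0.10, Uqcr10 by 0.05 ± 0.10 and Uqcrh by -0.07 ± 0.10, all with overlapping groups. Without replicate 3 these were 0.10, -0.04 and -0.15.

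Complex IV, cytochrome c oxidase, varied least between arrays of the same genotype among the complexes. The SD of its array medians within genotypes, pooled over both, was 0.043, against 0.106 to 0.262 for the others. All 10 genes had positive fold changes, but the median was 0.07 (0.03 without HDAC3FF replicate 3) and 9 of the 10 were at or under 0.12. Its median difference from the single controls was 0.02, 0.05 and 0.14 for replicates 1, 2 and 3, beside 0.03, -0.08 and 0.44 for complex I. Cox5a, a nuclear-encoded subunit on the matrix side, read 11.84, 11.84 and 11.82 in HDAC3ΔIEC cells, against 11.70, 11.77 and 11.67 in HDAC3FF cells. Cox6a1 read 12.68, 12.68 and 12.69 in HDAC3ΔIEC cells, against 12.66, 12.60 and 12.58 in HDAC3FF cells. Neither gene's groups overlapped, yet the differences were 0.12 ± 0.08 and 0.07 ± 0.07 (limma adjusted p = 0.668 and 0.825). Cox5b and Cox6c had the smallest differences of the complex, 0.02 ± 0.08 and 0.02 ± 0.09, which were -0.01 and -0.03 without replicate 3. The exception was Ndufa4, which read 11.78, 11.73 and 11.71 in HDAC3ΔIEC cells, against 11.81, 11.49 and 11.14 in HDAC3FF cells. Its controls ran across the HDAC3ΔIEC values and below them, and the difference of 0.25 ± 0.16 (adjusted p = 0.660) was 0.09 without replicate 3.

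The 17 complex V genes had a median log2 fold change of 0.07, with 14 positive and 0 called, and -0.03 without HDAC3FF replicate 3. Their median difference from the single controls was -0.01, -0.02 and 0.23. Atp5j, coupling factor 6 of the peripheral stalk, read 11.58, 11.60 and 11.75 in HDAC3ΔIEC cells, against 11.49, 11.51 and 11.21 in HDAC3FF cells. The groups did not overlap, and the difference was 0.24 ± 0.11 (limma adjusted p = 0.483), or 0.14 without replicate 3. Atp5pb, also of the peripheral stalk, differed by 0.24 ± 0.13 and Atp5a1, the alpha subunit of the catalytic head, by 0.19 ± 0.11, both with overlapping groups. Without replicate 3 both were at 0.11. The beta subunit Atp5b, which carries the catalytic sites, read 11.76, 11.72 and 11.38 in HDAC3ΔIEC cells, against 11.71, 11.72 and 11.55 in HDAC3FF cells. Here HDAC3ΔIEC replicate 3 was the lowest array, and the difference was -0.04 ± 0.12 (adjusted p = 0.958), or -0.09 without HDAC3FF replicate 3. The 3 genes that encode the c subunit of the rotor ring, Atp5g1, Atp5g2 and Atp5g3, differed by 0.13 ± 0.15, 0.03 ± 0.14 and 0.02 ± 0.10. All 3 overlapped between genotypes, and without HDAC3FF replicate 3 all 3 were below 0, at -0.02, -0.13 and -0.06.

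**Figure D2:**
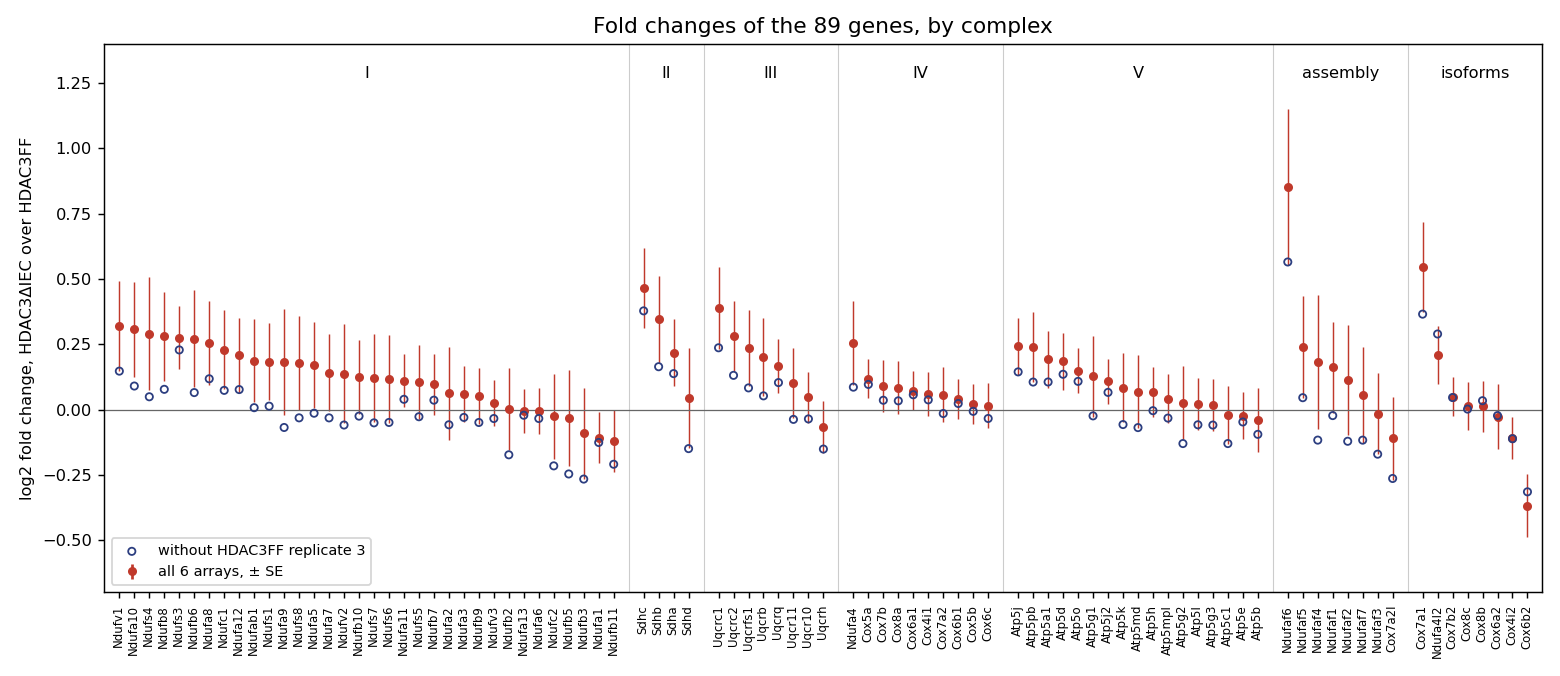
For each of the 89 genes, grouped by complex along the horizontal axis, the filled red point is the log2 fold change of HDAC3ΔIEC over HDAC3FF from all 6 arrays with its limma SE, and the open blue circle is the value without HDAC3FF replicate 3. The open circles lie lower for every gene of complexes I to V and every assembly factor, and on either side for the isoforms. The median over the 89 genes is 0.11 with the array and -0.02 without it.

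The assembly factors, which build the complexes or join them into supercomplexes, had a median log2 fold change of 0.14, and all 8 were lowest on HDAC3FF replicate 3. Without it the median was -0.12. Ndufaf6, an assembly factor of complex I, read 5.79, 6.34 and 6.70 in HDAC3ΔIEC cells, against 5.67, 5.76 and 4.85 in HDAC3FF cells. The signals were near the array median and spread widely within both groups, which met closely at 5.79 in HDAC3ΔIEC against 5.76 in HDAC3FF. Its log2 fold change of 0.85 ± 0.30 was the largest of the 89 genes (limma adjusted p = 0.330), and it was 0.57 without replicate 3. Ndufaf5 and Ndufaf1 differed by 0.24 ± 0.20 and 0.16 ± 0.17, and Ndufaf3 by -0.02 ± 0.15. Without replicate 3 these were 0.05, -0.02 and -0.17. Cox7a2l, which joins complexes III and IV into supercomplexes, differed by -0.11 ± 0.16, or -0.26 without replicate 3. Ndufaf1, Ndufaf3 and Cox7a2l changed sign when 1 array or another was left out. So did Ndufaf2, Ndufaf4 and Ndufaf7, at 0.11, 0.18 and 0.06, which were each at -0.12 without HDAC3FF replicate 3.

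Of the 8 tissue-restricted isoforms, 1 had its lowest value on HDAC3FF replicate 3, and the median log2 fold change was 0.01, or 0.02 without that array. The isoform lowest there was Cox7a1, at -0.63 from its mean, and it was the only isoform with a mean signal above 6. Cox7a1, known as the heart and skeletal muscle isoform of a complex IV subunit, had the smallest p of all 89 genes. It read 11.19, 11.10 and 11.26 in HDAC3ΔIEC cells, against 10.65, 10.99 and 10.28 in HDAC3FF cells. Every HDAC3ΔIEC array lay above every control, and the log2 fold change was 0.55 ± 0.17, a fold of 1.46 (limma adjusted p = 0.269), or 0.37 without HDAC3FF replicate 3. Cox6b2, the testis isoform, read 5.10, 5.12 and 4.94 in HDAC3ΔIEC cells, against 5.18, 5.56 and 5.53 in HDAC3FF cells. All its HDAC3ΔIEC arrays lay below the controls, the nearest at 5.12 against 5.18. The log2 fold change was -0.37 ± 0.12 (adjusted p = 0.295), at signals close to the array median. Ndufa4l2, known to be induced by hypoxia, differed by 0.21 ± 0.11 and Cox4i2, the lung isoform, by -0.11 ± 0.08, both at signals under the array median. The remaining isoforms, Cox6a2, Cox7b2, Cox8b and Cox8c, differed by -0.03, 0.05, 0.01 and 0.01, or by -0.02, 0.05, 0.03 and 0.00 without replicate 3.

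**Figure D3:**
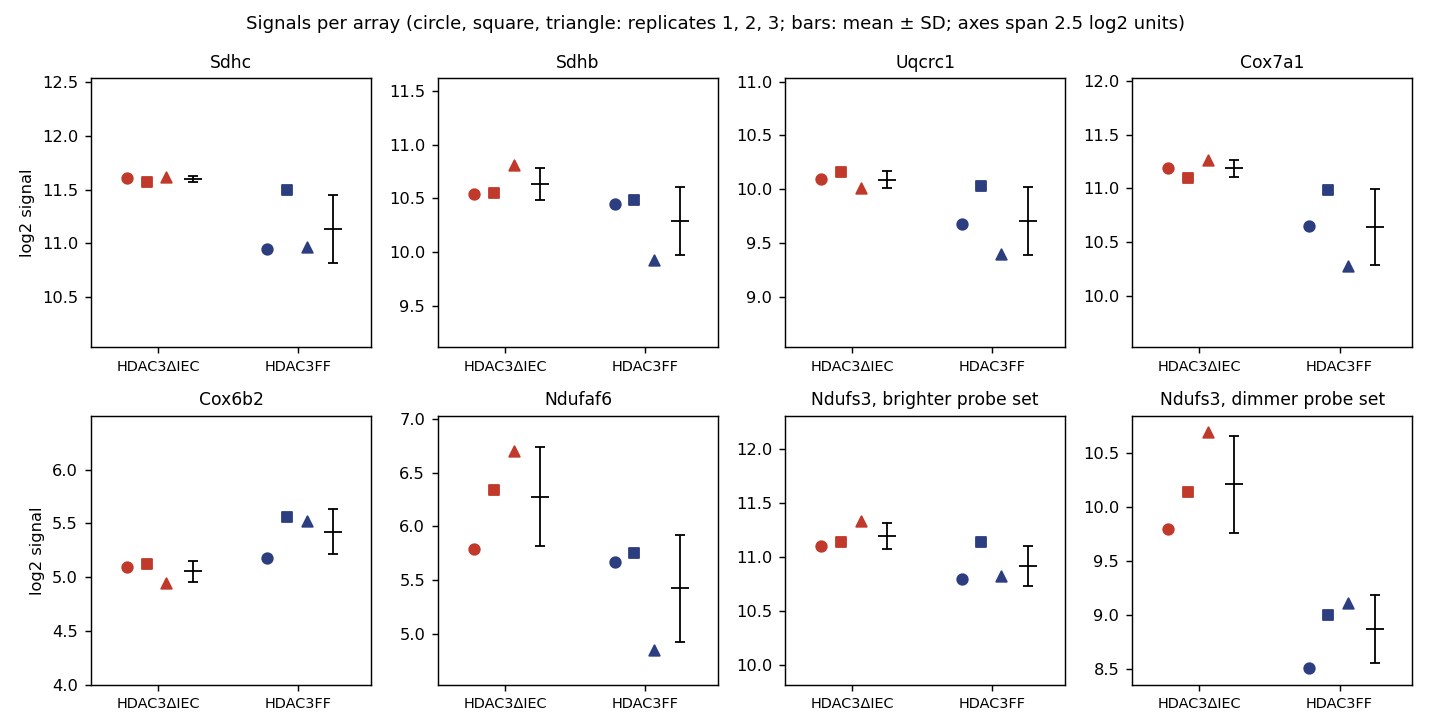
Log2 signals of single genes are shown on the vertical axis, HDAC3ΔIEC (red) left and HDAC3FF (blue) right; circles, squares and triangles are replicates 1, 2 and 3, and the bars are mean ± SD (n = 3). Every panel spans the same log2 range, so distances compare between panels: Sdhc differs by 0.46, Cox6b2 by -0.37, and the Ndufs3 probe sets by 0.28 (brighter) and 1.34 (dimmer).

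Other genes of the pathway included 2 that passed the test, in the lists for coenzyme Q synthesis and for entry of pyruvate into the mitochondrion. Coq5, a methyltransferase of coenzyme Q synthesis, read 8.30, 8.21 and 8.22 in HDAC3ΔIEC cells, against 7.04, 7.40 and 6.68 in HDAC3FF cells. The groups were far apart, and Coq5 rose by 1.20 ± 0.17 (limma adjusted p = 0.0383), or by 1.02 without HDAC3FF replicate 3. It was the only one called of 10 measured in its list, whose median was 0.22, or 0.07 without HDAC3FF replicate 3. The call was lost (adjusted p between 0.107 and 0.168) when any of the 3 HDAC3ΔIEC arrays or HDAC3FF replicate 1 was left out. Coq8a, a kinase-like protein of the same pathway, lay below every control without passing, at -0.40 ± 0.10 (adjusted p = 0.159).

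Pdk4 encodes a kinase that inactivates pyruvate dehydrogenase and so favours oxidation of fatty acids over glucose. It read 10.34, 10.66 and 10.31 in HDAC3ΔIEC cells, against 8.60, 7.74 and 8.91 in HDAC3FF cells. Every HDAC3ΔIEC array lay above the controls, and Pdk4 rose by 2.02 ± 0.28 (limma adjusted p = 0.0366), or by 2.27 without HDAC3FF replicate 3, which here was the highest control. The call was lost without any of the 3 HDAC3ΔIEC arrays or HDAC3FF replicate 1 (adjusted p between 0.0933 and 0.168). It was the only one called of the 11 measured genes of pyruvate entry, whose median was 0.17, or 0.02 without HDAC3FF replicate 3. Pdha1, the catalytic subunit that PDK4 phosphorylates, differed by 0.50 ± 0.15 (adjusted p = 0.256) with groups that did not overlap.

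The remaining lists of the pathway held no called gene (limma, adjusted p under 0.05). Counts at an unadjusted p under 0.05 in these lists stand beside 11.2% of all genes. The 13 TCA cycle genes had a median log2 fold change of 0.24, or 0.06 without HDAC3FF replicate 3, and 2 had an unadjusted p under 0.05. These were citrate synthase, Cs, at 0.41 ± 0.15 (adjusted p = 0.352), and Ogdh at 0.24 ± 0.09 (adjusted p = 0.401). The electron carrier Cycs and the complex III subunit cytochrome c1, Cyc1, which the symbol rule does not take, differed by 0.16 ± 0.09 and 0.23 ± 0.15, or by 0.09 and 0.09 without HDAC3FF replicate 3. Among further assembly factors the median was 0.09 for complex I (9 genes), -0.06 for II (4), -0.09 for III (6) and 0.10 for IV (16). It was 0.15 for V (4, among them the inhibitor Atpif1). Without HDAC3FF replicate 3 these medians were 0.02, -0.31, -0.20, 0.00 and 0.00. At an unadjusted p under 0.05 there were Tmem70, which stands in the lists of complexes I and V, 1 gene of III and 2 of IV. Coa5, a complex IV assembly factor, came nearest to passing, at 0.42 ± 0.09 (adjusted p = 0.115), and Uqcc3, of complex III assembly, lay the other way at -0.57 ± 0.17 (adjusted p = 0.247). Of the carriers that exchange ATP and phosphate, Slc25a4, the adenine nucleotide translocator known from heart and muscle, read 7.21, 6.96 and 7.37 in HDAC3ΔIEC cells, against 8.41, 9.12 and 7.73 in HDAC3FF cells. All controls were higher, and the log2 fold change was -1.24 ± 0.32 (adjusted p = 0.167), which passed without HDAC3FF replicate 3, at -1.58 (adjusted p = 0.0223). Its widely expressed relative Slc25a5 differed by 0.15 (adjusted p = 0.702).

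Regulators and the organelle's own expression machinery gave no call either. The 14 measured regulators of mitochondrial biogenesis had a median of 0.14, with Esrrg, an orphan nuclear receptor, at -0.44 ± 0.14 (limma adjusted p = 0.277) and Gabpb1, the beta chain of GABP, at 0.30 ± 0.11 (adjusted p = 0.391). At an unadjusted p under 0.05 there were 2 of these regulators, beside 11.2% of all genes. The 9 nuclear genes that maintain or express the mitochondrial genome had a median of -0.11 (-0.17 without HDAC3FF replicate 3), with 0 at an unadjusted p under 0.05. The 77 mitochondrial ribosomal protein genes had a median of 0.13, or -0.03 without HDAC3FF replicate 3, and 67 of them (87.0%) were lowest on that array. Of these 77, 6 had an unadjusted p under 0.05, a smaller share than the 11.2% over all genes. The 57 cytosolic ribosomal genes had a median of -0.09, or -0.16 without HDAC3FF replicate 3, and 47 of the 57 were on the negative side. None was called by limma, and 2 had an unadjusted p under 0.05, 1 in each direction, again a smaller share than over all genes. Of the 57, 26 (45.6%) were lowest on HDAC3FF replicate 3, and the TCA cycle genes had 10 of 13 (76.9%).

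**Figure D4:**
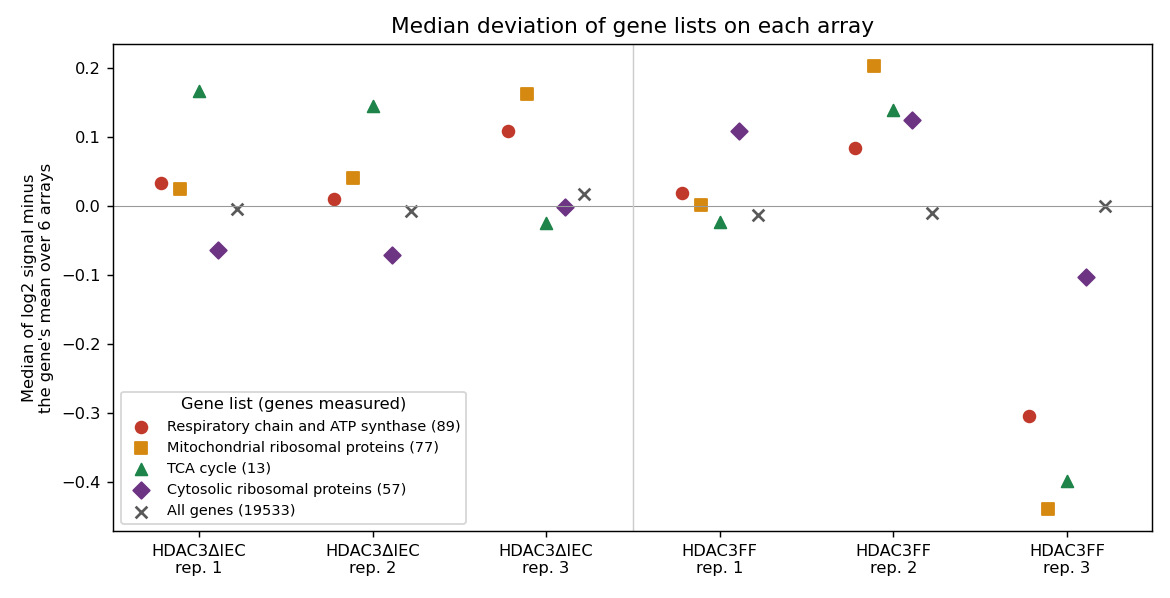
Each symbol is the median, over the genes of 1 list, of the log2 signal minus the gene's mean over the 6 arrays, with the HDAC3ΔIEC arrays left and the HDAC3FF arrays right. On HDAC3FF replicate 3 the respiratory chain and ATP synthase genes stand at -0.30, mitochondrial ribosomal proteins at -0.44 and the TCA cycle at -0.40, cytosolic ribosomal proteins at -0.10 and all genes at 0.00.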

How the data were processed

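RNA extracted with Trizol was labelled with biotin for Affymetrix arrays, per the labels' protocols. The authors deposited log2 signals, 1 per probe set and array, made with Affymetrix Power Tools per the submitters' processing notes. Its version, background correction and normalization were not given in the sources used here. Signals were used as deposited. Of 24939 probe sets, 21105 name 1 gene in the platform annotation. The brightest of these per gene gave 19533 genes. Genotypes were compared with limma 3.58.1 (lmFit and eBayes, two-sided, R 4.3.3), Benjamini-Hochberg over all 19533 genes, with calls at an adjusted p under 0.05. Errors of fold changes are limma's SE. The design text states 3 biological replicates per genotype; the number of arrays limits precision.

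The members, lists and tests were chosen with earlier results of these data known. Named genes are, in each complex, the 3 with the smallest p and the 2 most negative, all isoforms, Sdha to Sdhd, Atp5g1 to Atp5g3, Hdac3, Epcam, and in each pathway list called genes or those with the smallest p. Others (Ndufb8, Ndufaf2, Ndufaf4, Ndufaf7, Cyc1, Atpif1, Slc25a5, Slc26a3, Krt20, and probe sets of Atp5md and Ndufab1) were chosen after their values were seen. Same-numbered arrays did not deviate together (correlations -0.02, -0.07 and -0.20 over all genes), so no block was used. The test was checked on simulated data. Tables and figures were made with Python 3.11.15 and matplotlib 3.10.9. Alternatives tried were array weights, a replicate block, a robust prior or intensity trend, quantile normalization, median centring, filters on dim genes, the mean of a gene's probe sets, unmoderated statistics, other thresholds and groupings, and omission of each array.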

Additional observations from a re-analysis of the deposited data

How the results depend on the processing

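No alternative called any of the 89 genes (limma, or unmoderated statistics, under which 3 had an unadjusted p under 0.05). The smallest adjusted p of a named gene was that of Sdhc without HDAC3FF replicate 2, at 0.0765. The count of called genes over all genes was less settled. It was 137, and became 12 with the replicate block, 357 with array weights, 321 at an adjusted p under 0.10 and 0 with unmoderated statistics (1858 at an unadjusted p under 0.05). Leaving out 1 array gave 13 to 430, the lowest without HDAC3FF replicate 1 and the highest without HDAC3FF replicate 3. The replicate block changed no call among the 89 genes. The median of the tissue-restricted isoforms was 0.26 when genes under the median signal were filtered out, which left only Cox7a1 and Cox6a2 of that list. It was -0.043 to 0.061 with 1 array left out. The median of all 89 genes lay between -0.02 and 0.20 with 1 array left out, and was 0.05 with array weights.

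Of 40 named genes, 25 kept their sign under every alternative, among them Sdha, Sdhb, Sdhc, Uqcrc1, Uqcrc2, Cox7a1, Cox6b2 and Ndufaf6. The signs of 15, all with small differences, turned in some. With array weights Cox6c was at -0.024, Cox8b at -0.00090 and Atp5g2 at -0.049. With quantile normalization Sdhd was at -0.0077, Cox6c at -0.014, Cox8b at -0.00072 and Cox8c at -0.00040. With the mean of its probe sets Atp5g2 was at -0.030. With 1 array left out the ranges were -0.15 to 0.18 for Sdhd, -0.036 to 0.11 for Uqcr10, -0.034 to 0.071 for Cox6c, -0.0068 to 0.045 for Cox5b, -0.11 to 0.080 for Atp5b and -0.084 to 0.021 for Atp5e. They were -0.024 to 0.26 for Atp5g1, -0.13 to 0.13 for Atp5g2 and -0.059 to 0.068 for Atp5g3. Among assembly factors they were -0.023 to 0.34 for Ndufaf1, -0.17 to 0.12 for Ndufaf3 and -0.26 to 0.039 for Cox7a2l, and among isoforms -0.13 to 0.051 for Cox6a2, -0.067 to 0.069 for Cox8b and -0.048 to 0.060 for Cox8c. Causes were not tested. Fitting all probe sets together, an alternative chosen after the data were seen, called 118 of 21105 and 0 of the 41 probe sets of genes with several.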

Other observations

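Among the 77 mitochondrial ribosomal protein genes, which encode the ribosome that translates the mitochondrially encoded subunits, 2 had the smallest p. Mrpl38, of its large subunit, read 7.57, 7.77 and 7.90 in HDAC3ΔIEC cells, against 7.01, 7.39 and 6.74 in HDAC3FF cells, a log2 fold change of 0.70 ± 0.17 (limma adjusted p = 0.155). Mrps18b, of the small subunit, read 8.78, 8.74 and 8.53 in HDAC3ΔIEC cells, against 8.19, 8.33 and 7.62 in HDAC3FF cells, a log2 fold change of 0.63 ± 0.18 (adjusted p = 0.232), or 0.42 without HDAC3FF replicate 3. Every HDAC3ΔIEC array was above every control for both genes, and neither passed. In the cytosolic list, Rpl5 read 10.71, 10.69 and 10.65 in HDAC3ΔIEC cells, against 11.15, 11.06 and 10.75 in HDAC3FF cells, and differed by -0.31 ± 0.12 (adjusted p = 0.376). The other gene with a small p in that list, Rps19bp1 at 0.39 ± 0.14 (adjusted p = 0.345), was 0.23 without HDAC3FF replicate 3; it matched by its symbol but encodes a protein that binds a ribosomal protein.

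Ppargc1a, the coactivator known for driving expression of respiratory chain genes, had its lowest value on a different array from the chain. It read 9.08, 9.38 and 7.96 in HDAC3ΔIEC cells, against 9.01, 9.17 and 8.82 in HDAC3FF cells, a difference of -0.19 ± 0.34 (limma adjusted p = 0.917). Its relative Ppargc1b read 7.16, 7.16 and 7.10 in HDAC3ΔIEC cells, against 6.85, 7.17 and 6.48 in HDAC3FF cells, lowest on HDAC3FF replicate 3, and differed by 0.31 ± 0.17 (adjusted p = 0.579), or 0.13 without that array. Both were picked after their values were seen.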
